A study of Saccharomyces cerevisiae with 3 samples.

Results

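Expression of 41 yeast genes of the small-subunit processome was compared between stationary-phase cells labelled as lacking RPA12 and cells labelled wild type. The processome is the assembly that cuts and folds the precursor of 18S ribosomal RNA. The genes were chosen by gene symbol, from a list of subunits and associated factors of this assembly. All 41 were measured, each by a single probe set, among 5498 Saccharomyces cerevisiae probe sets with a single gene name. They were ordered by subcomplex: 7 genes of UTP-A, 6 of UTP-B, 2 of UTP-C, 5 proteins of the U3 small nucleolar ribonucleoprotein, 3 of the Mpp10 complex, 6 enzymes and their activators, the pairs Nop14 with Noc4 and Bfr2 with Enp2, and 8 single factors.

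The series holds 3 single-colour Affymetrix arrays of Saccharomyces cerevisiae: 2 arrays labelled RPA12 deletion and 1 array labelled wild type, with no treatment. All 3 samples are labelled as strain BY4741, a haploid of mating type a carrying the deletions his3Δ1, leu2Δ0, met15Δ0 and ura3Δ0, so the controls carry these deletions too. The titles of the 2 deletion samples give synthetic medium and stationary phase, which the wild-type title does not name. For all 3 samples growth at 30 °C is given, and 6 µg of total RNA went into each labelling. RPA12 codes for one of the smaller subunits of RNA polymerase I, which transcribes the long ribosomal RNA precursor. The labels do not say whether the 2 deletion arrays came from separate cultures or clones, so the test measures only the spread between those arrays, which may be technical.

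In growing yeast the processome forms on the nascent precursor. UTP-A binds the leader of the transcript first, followed by UTP-B and the U3 ribonucleoprotein, whose RNA pairs with the precursor and guides its folding. The precursor is then cleaved on both sides of the 18S region while helicases, a GTPase and RNA-modifying enzymes act on it. Genes for these factors belong to the ribosome biogenesis regulon, which is known to be strongly expressed during growth and repressed when nutrients run out.

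Several signals went against the labels. RPA12 itself had log2 RMA values (the unit of every array value here) of 5.74 and 5.79 where it is labelled deleted, against 3.60 in the wild type, so it was higher by 2.16 (limma adjusted p = 0.00898). Where its probes lie in the gene is unknown here, and probes beyond the deleted stretch cannot check a label. The growth description of the wild-type sample names RPA12 deletion cells, while its genotype reads wild type, and the genotype was followed. Here and below, rose or fell means a limma adjusted p under 0.05 over all 5498 probe sets together with a difference of at least 2-fold, a rule that 23.8% of all tested probe sets passed as higher and 10.2% as lower. Of 7 a-specific genes 2 rose and 1 fell, and neither rise (BAR1, ASG7) passed after median centring or quantile normalization again. Of 5 α-specific genes 4 rose and none fell, among them MF(ALPHA)1, the α-factor gene, at 8.94 and 8.80 against a wild-type value of 1.75 that is not above background. MF(ALPHA)2 was short of 2-fold after quantile normalization again, at 0.99, which left 3 of 5, while median centring left 4. Of all tested probe sets 16.8% and 18.8% were higher under these scalings. Of the 4 genes labelled with a deletion in every sample, MET17 (MET15) read 9.43 and 9.36 against a wild-type value of 1.56, below background, and HIS3 read 9.27 and 9.30 against 6.73. Probe positions in these genes are unknown here too, so the HIS3 signal on all 3 arrays need not go against its label. URA3 was below background at 1.25 on all 3 arrays, and LEU2 was just above it at 1.75 on both deletion arrays and 1.91 on the wild-type array. Of 12 stationary-phase markers 9 fell and 1 rose, against 10.2% and 23.8% of all tested probe sets (median difference -2.44). SIP18 fell, at 6.78 and 6.93 against 11.18, and SNO1 rose, at 4.64 on both deletion arrays against 2.18. HSP12 stayed high, at 10.74 on both against 11.06. Lower values than in the wild type do not by themselves go against a stationary-phase label. The 36 poly-A spike-in probe sets, which report RNA added before labelling, differed by a median of -3.81. Below, deletion arrays means those labelled so, each difference is their mean minus the wild-type value, and genotype, strain, growth state and array processing cannot be told apart.

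Processome genes were mostly higher on the arrays labelled RPA12 deletion. Of the 41 genes 26 rose and none fell by limma's adjusted p and the 2-fold minimum. Among all tested probe sets 23.8% passed the same rule as higher and 10.2% as lower. The median difference of the 41 genes was 1.41 on the log2 scale, a 2.65-fold median, against 0.19 for all tested probe sets. Both deletion arrays lay above the wild-type array for 40 of the 41 genes (56% of all tested probe sets, with 34.4% lower on both), and 39 differed by more than the median probe set. The exception to the first count was UTP20, which read 5.89 on all 3 arrays. In 12 genes the rise was at least 4-fold, against 8.6% of all tested probe sets, and in none was there a fall of that size (3.66%). After median centring 11 of the 41 genes and 367 of the 5498 probe sets were at least 4-fold higher, and after quantile normalization again 8 and 285. Fewer cells expressing a gene and less RNA per cell cannot be told apart in such bulk samples.

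The 26 adjusted p-values of the genes that rose (limma) ran from 9.15e-05 to 0.0484. The lowest, shared by PWP2, UTP6, IMP3 and others, came with equal deletion values and does not make these genes better supported. Of the 15 genes that did not pass, 11 had a limma adjusted p under 0.05 but differed by less than 2-fold. By that p alone 37 of the 41 were higher and none lower, against 50.4% and 29.7% of all tested probe sets. With 1 wild-type array, the test takes its spread from the deletion arrays, and 11 of the 41 genes had exactly equal values on both. The largest gap between the deletion arrays was 0.21, at NAN1, which is smaller than the difference from the wild-type array in 39 of the 41 genes, all but UTP20 and MPP10. Deletion arrays 1 and 2 held 2250 and 2229 distinct values among the 5498 probe sets, against 4384 on the wild-type array. Whether this narrows the gap between them was not tested. For these 41 genes a rule of 2-fold alone called the same 26, against 24.4% higher among all tested probe sets. The test therefore added nothing to the 2-fold rule here, and the spread between wild-type cultures was not measured.

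**Figure D1:**
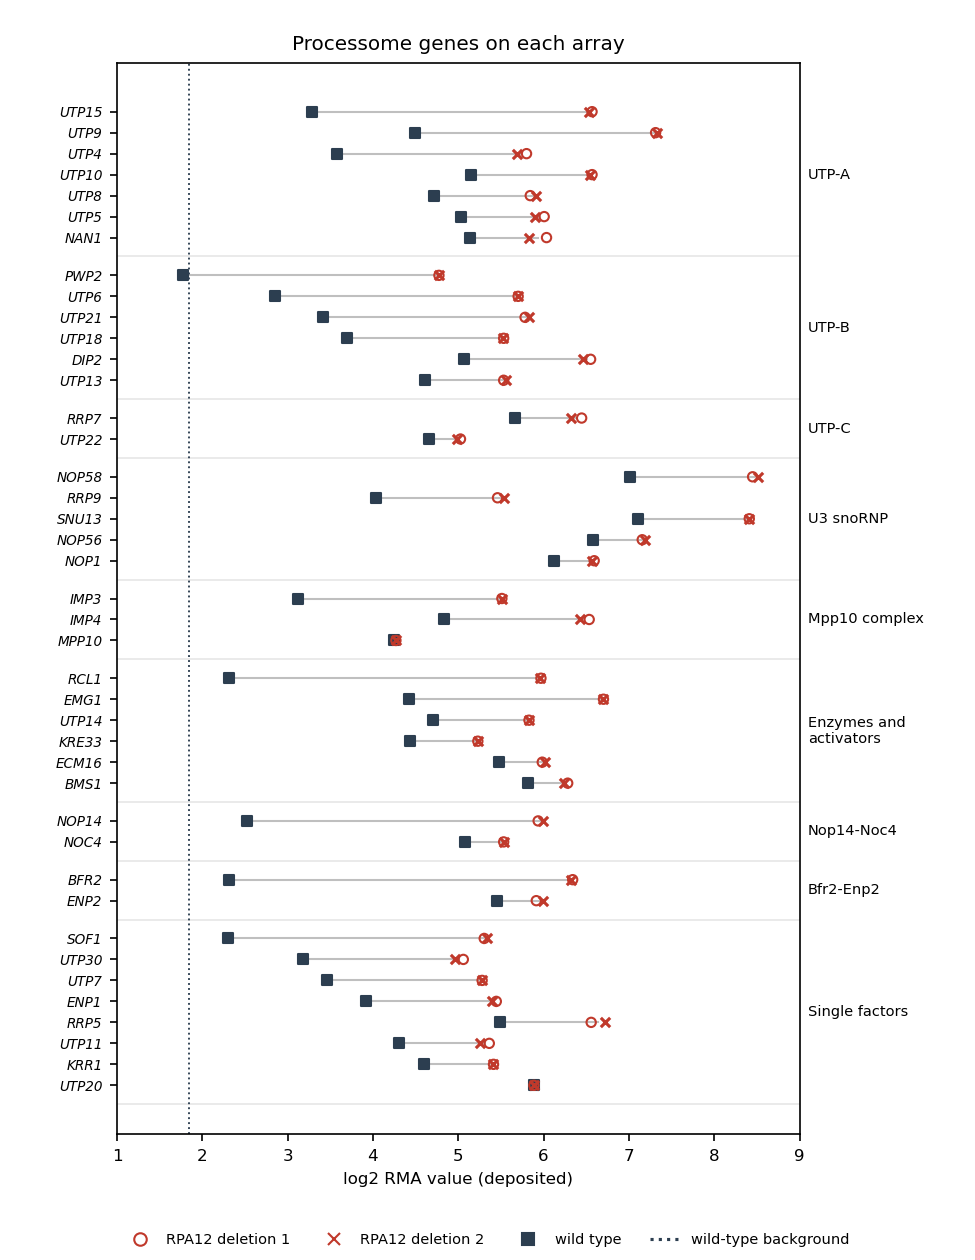
Deposited log2 RMA value (x axis) of each of the 41 genes (y axis, grouped by subcomplex) on RPA12 deletion array 1 (circles), RPA12 deletion array 2 (crosses) and the wild-type array (squares), with a grey line joining the wild-type value to the deletion mean and a dotted line at the wild-type background level of 1.84. The circles and crosses lie nearly on top of each other, and the squares lie to the left for every gene except UTP20, at 5.89 on all 3 arrays.

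UTP-A, the subcomplex that binds the leader of the precursor and is also known for its tie to transcription of ribosomal DNA, had 5 of its 7 genes higher, with a median difference of 1.41. This count and those of the subcomplexes below stand beside 23.8% of all tested probe sets higher. UTP15, a β-propeller subunit, led with 6.57 and 6.53 on the deletion arrays against 3.29, a rise of 9.57-fold (limma adjusted p = 0.00342). UTP9 read 7.31 and 7.33 against 4.49, a rise of 7.12-fold (limma adjusted p = 0.00216). These genes had wild-type values far below both deletion values. UTP4, another β-propeller subunit, rose 4.46-fold from 3.58, and UTP10, a large protein built of HEAT repeats, rose 2.65-fold from 5.15. UTP8, also known for a role in transfer RNA export, read 5.84 and 5.91 against 4.72, apart by 1.16, and by 0.91 after median centring or 0.82 after quantile normalization again, both short of 2-fold. UTP5 read 6.01 and 5.90 against 5.03, under 2-fold apart. NAN1, known also as UTP17, had the smallest difference of the group, with 6.03 and 5.83 against 5.13 (difference 0.80, limma adjusted p = 0.0953). Both of its deletion values were above the wild-type value, as for 56% of all tested probe sets.

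UTP-B, the scaffold that joins the leader of the precursor to the U3 ribonucleoprotein, had 5 of 6 genes higher and a median difference of 2.12. PWP2, a double β-propeller protein of its core, read 4.77 on both deletion arrays, while its wild-type value of 1.77 was not above the background level of 1.84. Its rise was therefore at least 7.62-fold (limma adjusted p = 9.15e-05). It was the only one of the 41 genes with no wild-type signal above background. UTP6 read 5.70 on both deletion arrays against 2.86, a rise of 7.19-fold (limma adjusted p = 9.15e-05). UTP21 rose 5.27-fold from 3.41, UTP18, which recruits the exosome's helicase Mtr4, rose 3.57-fold from 3.69, and DIP2 rose 2.71-fold from 5.07. UTP13 had the smallest difference, with 5.53 and 5.56 against 4.61 (difference 0.94, limma adjusted p = 0.0107), just under 2-fold. All 5 UTP-B genes that rose also passed after median centring and after quantile normalization again, against 18.8% and 16.8% of all tested probe sets.

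UTP-C was the subcomplex in which neither of the 2 genes listed here passed. Membership follows the gene lists used: RRP36, listed among the other processome factors, rose 6.55-fold from 2.78. UTP22 read 5.03 and 4.99 against 4.66, a difference of 0.35 (limma adjusted p = 0.0348) that turned to -0.08 after quantile normalization again. RRP7 read 6.45 and 6.32 against 5.66, a difference of 0.72 (limma adjusted p = 0.0599). Both deletion arrays lay above the wild-type array for both genes, as for 56% of all tested probe sets (34.4% lay below on both). The differences were small beside those of UTP-B, but genes of a complex are not replicates and the subcomplexes were not tested against each other. Casein kinase 2, whose subunits also belong to UTP-C, had no gene that passed among 4. CKA1 read 6.92 on both deletion arrays against 6.45, and CKA2, the other catalytic subunit, 6.16 and 6.03 against 6.66.

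Among the 5 proteins of the U3 ribonucleoprotein 3 rose, within a narrow range of differences (0.46 to 1.47, median 1.30). NOP58, a core protein of all box C/D ribonucleoproteins, read 8.45 and 8.52 against 7.01, a rise of 2.77-fold (limma adjusted p = 0.0149). RRP9, the protein found only in the U3 particle, read 5.46 and 5.53 against 4.03, a rise of 2.76-fold (difference 1.47) that was short of 2-fold, at 0.95, after quantile normalization again. SNU13, which is shared with the spliceosome, rose 2.47-fold from 7.11. NOP56, the partner of NOP58 in the same core, read 7.16 and 7.19 against 6.58 (difference 0.60). NOP1, the yeast fibrillarin and the methyltransferase of these particles, had the smallest difference, with 6.59 and 6.57 against 6.12 (difference 0.46, limma adjusted p = 0.0187). The deletion values of both genes were above the wild-type value, as for 56% of all tested probe sets, at less than 2-fold.

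The Mpp10 complex was divided. IMP3, which with IMP4 helps U3 pair with the precursor, read 5.51 on both deletion arrays against 3.12, a rise of 5.25-fold (limma adjusted p = 9.15e-05). IMP4 read 6.54 and 6.42 against 4.83, a rise of 3.13-fold (limma adjusted p = 0.0226). MPP10, the protein that holds both, read 4.27 on the deletion arrays and 4.25 on the wild-type array. That difference of 0.02 had a limma adjusted p = 0.00233, with tied deletion values, and an adjusted p = 0.885 when the prior variance was estimated without tied probe sets. It turned to -0.66 after quantile normalization again and -0.23 after median centring, so MPP10 has no settled direction.

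The enzymes split in the same way, with 3 of 6 higher. RCL1, a cyclase-like protein needed for cleavage within the precursor, read 5.97 and 5.96 against 2.31, a rise of 12.6-fold (limma adjusted p = 0.000541). BMS1, the GTPase that binds Rcl1 and brings it into the assembly, read 6.28 and 6.25 against 5.81, the smallest difference of the group at 0.45 (limma adjusted p = 0.0273). The rise of the one was thus not matched by a 2-fold difference of the other. EMG1, a methyltransferase that acts on 18S RNA, read 6.70 on both deletion arrays against 4.42, a rise of 4.87-fold. KRE33, which acetylates 18S RNA, read 5.23 on both against 4.44, under 2-fold. ECM16, the helicase Dhr1 that removes U3 from the precursor, read 5.98 and 6.02 against 5.48. UTP14, the activator of that helicase, read 5.83 on both against 4.70, apart by 1.13, and by 0.88 after median centring or 0.78 after quantile normalization again, both short of 2-fold.

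The 2 pairs of binding partners each held one gene with a large difference and one with a small difference. BFR2, an essential processome protein, had the largest difference of all 41 genes, with 6.34 and 6.33 against 2.32, a rise of 16.2-fold (limma adjusted p = 0.00103). ENP2, which binds Bfr2, read 5.91 and 5.99 against 5.45 (difference 0.50, limma adjusted p = 0.0525). NOP14 read 5.94 and 5.99 against 2.53, a rise of 10.8-fold (limma adjusted p = 0.00527). Its partner NOC4 read 5.53 on both deletion arrays against 5.08, under 2-fold (difference 0.45). A single member of each pair passed. The wild-type values of BFR2 and NOP14, like those of RCL1 and SOF1, were little above the background level of 1.84 on that single array. Those of ENP2 and NOC4 were far above it, so the folds of the former are less certain. In each pair both genes were above the wild-type array on both deletion arrays, as were 56% of all tested probe sets. Whether partners differ from each other beyond the spread between cultures was not tested.

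Of the 8 single factors 6 rose, with a median difference of 1.32. After median centring 4 of the 8 rose, against 18.8% of all tested probe sets, and after quantile normalization again 3, against 16.8%. SOF1, a β-propeller protein, read 5.30 and 5.34 against 2.31, a rise of 8.09-fold (limma adjusted p = 0.00374). UTP30, which carries a fold like that of a large-subunit ribosomal protein and is dispensable for growth, rose 3.56-fold from 3.18. UTP7 rose 3.54-fold from 3.46. ENP1, which stays on the particle after the processome is dismantled, read 5.45 and 5.39 against 3.92, apart by 1.50, but short of 2-fold after quantile normalization again, at 0.93. RRP5, needed for both 18S and 25S RNA, read 6.56 and 6.72 against 5.49, a difference of 1.15 (limma adjusted p = 0.0484) that was 0.90 after median centring and 0.94 after quantile normalization again. UTP11 was at the edge, with 5.36 and 5.25 against 4.31, a difference of 1.00 that was 0.95 without replicate 1 of the deletion arrays, 0.75 after median centring and 0.53 after quantile normalization again. KRR1 read 5.41 on both deletion arrays against 4.59, under 2-fold. UTP20, a very large HEAT-repeat protein, was equal on the 3 arrays at 5.89, and its difference of 0 became -0.25 after median centring and -0.19 after quantile normalization again.

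**Figure D2:**
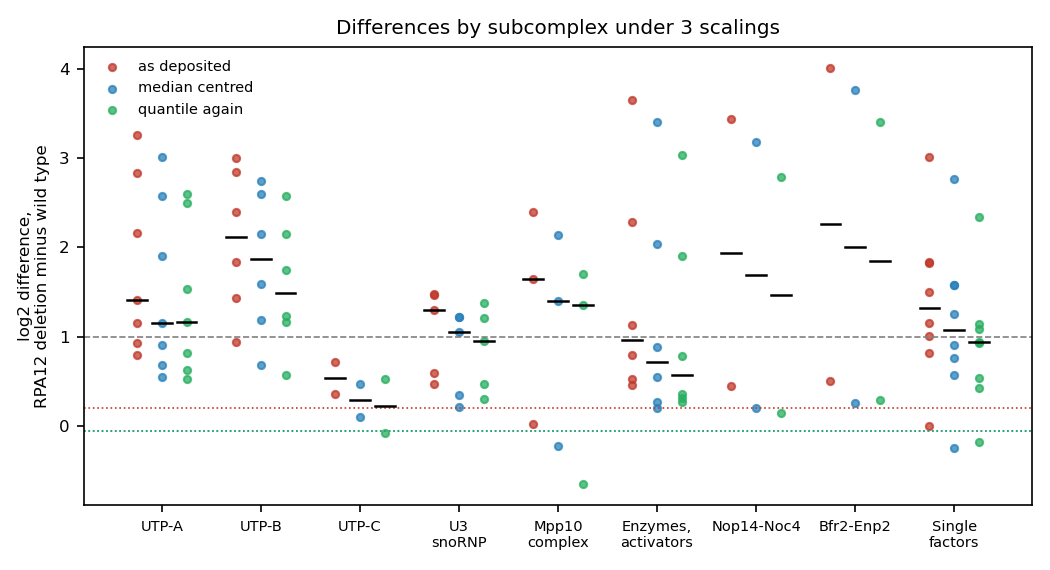
Log2 difference of each gene (y axis, mean of the 2 RPA12 deletion arrays minus the wild-type array) by subcomplex (x axis), for the deposited values (red), after median centring of each array (blue) and after quantile normalization again (green), with black bars at the subcomplex medians, a dashed line at 2-fold and dotted lines at the median of all tested probe sets under each scaling (the blue and green lines nearly coincide). UTP-B has the median of 2.12 and UTP-C that of 0.54, and BFR2 in the Bfr2 and Enp2 pair is the highest point at 4.02.

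The scale of the arrays set how many genes passed. Median centring left 22 of the 41 genes higher, against 18.8% of all tested probe sets higher and 14.8% lower. Quantile normalization again left 20 higher, against 16.8% higher and 15.2% lower. None was lower under either scaling, and the same 20 genes rose under all 3 scalings. The median difference of the 41 genes was 1.16 and 0.95 under these scalings, against -0.06 for all tested probe sets under each. The share of higher among all called probe sets moved from 70.0% as deposited to 55.9% and 52.5%.

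The other processome factors, a list of 29 genes outside the 41, were also mostly higher. Of these 21 rose and none fell, against 23.8% of all tested probe sets higher and 10.2% lower, with a median difference of 1.62. MRD1, an RNA-binding protein needed for cleavage of the precursor, read 5.83 and 5.89 against a wild-type value of 1.78 that is not above background, a rise of at least 16.2-fold. RRP3, a DEAD-box protein, read 6.73 and 6.77 against 3.10, a rise of 12.5-fold. DHR2, a helicase, read 4.85 on both deletion arrays against 2.02, a rise of 7.08-fold. LCP5, which binds Bfr2 and Enp2, rose 6.82-fold from 3.03. After quantile normalization again 17 of the 29 were higher, against 16.8% of all tested probe sets, and after median centring 18, against 18.8%.

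Factors of the later steps, which act on the pre-40S particle after the processome has come apart, gave 9 rises and no fall among 16 genes, against 23.8% and 10.2% of all tested probe sets, with a median difference of 1.26. TSR4, a chaperone of a small-subunit ribosomal protein, read 6.36 and 6.39 against 2.40, a rise of 15.8-fold. RRP12, a HEAT-repeat export factor, read 5.63 on both deletion arrays against 2.66, a rise of 7.81-fold. SLX9, which binds the pre-40S particle, rose 4.57-fold from 3.62. NOB1, the nuclease that makes the final 3′ end of 18S RNA, read 5.73 on both deletion arrays against 6.00, and the kinase RIO1 5.97 on both against 6.09. PRP43, a helicase that also works on introns, read 5.95 on all 3 arrays. These genes were all under 2-fold apart. The H/ACA ribonucleoprotein, the pseudouridylating counterpart of the box C/D particle, had 2 of 4 genes higher, against 23.8% of all tested probe sets. After median centring and after quantile normalization again it had 1 of 4, against 18.8% and 16.8%. These genes are too few to read against such shares. NOP10 rose 2.70-fold from 7.55, while CBF5, the pseudouridine synthase, read 7.75 and 7.70 against 6.70, a difference of 1.02 that was 0.77 after median centring and 0.91 after quantile normalization again, and 1.00 without replicate 1 of the deletion arrays, just under 2-fold.

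**Figure D3:**
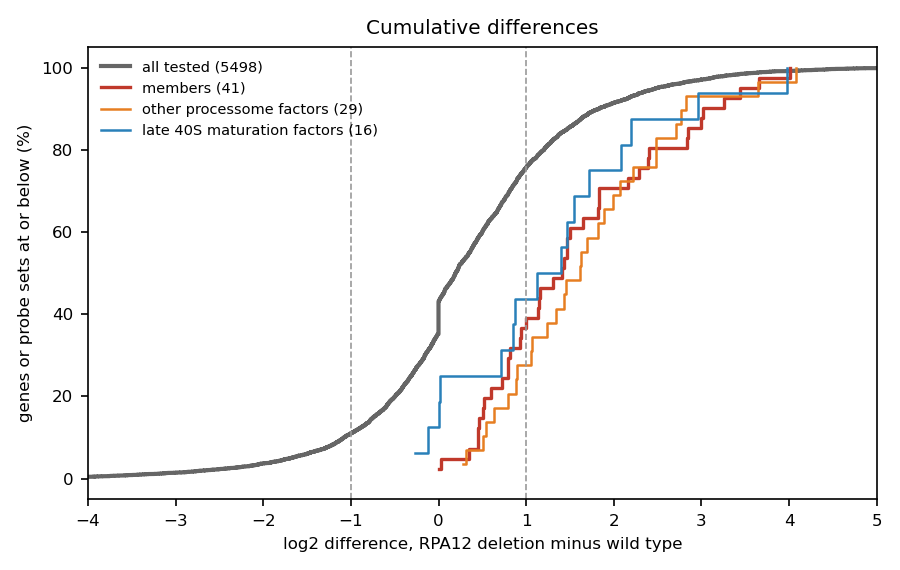
Percentage of genes or probe sets (y axis) whose log2 difference, RPA12 deletion mean minus wild type (x axis), is at or below a given value, for all 5498 tested probe sets (grey), the 41 genes described here (red), 29 other processome factors (orange) and 16 late 40S factors (blue), with dashed lines at 2-fold. The coloured curves lie to the right of the grey curve through most of the range, with medians of 1.41, 1.62 and 1.26 against 0.19, and the step of the grey curve at 0 is the 434 probe sets equal on all 3 arrays together with others close to 0.

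Probe sets for ribosomal RNA, which the array carries as controls, lay in the opposite direction. All 8 probe sets for 18S RNA were lower on both deletion arrays than on the wild-type array, as were 34.4% of all tested probe sets. The 8 lay lower by 0.79 to 3.73 on the log2 scale (median difference -1.84). Their values ran from 4.69 to 7.32 on the deletion arrays and from 6.20 to 8.57 on the wild-type array. All 8 probe sets for 25S RNA were lower as well (median difference -1.72), one of them by only 0.09, and the single 5.8S probe set read 5.47 and 5.02 against 6.48. These control probe sets were outside the fit and were not tested. The deletion arrays differed from each other by up to 0.60 on an 18S probe set and 0.76 on a 25S probe set, more than on any of the 41 genes. The 27 hybridization controls, which hold no yeast RNA, also had a negative median difference, at -1.48. That of the 36 poly-A spike-ins was more negative than the medians of 18S and 25S RNA, at -3.81. Lower on both deletion arrays were 26 of the 27 hybridization controls and all 36 spike-ins, so this trait is not particular to ribosomal RNA. How far the ribosomal RNA signal follows its amount in the cell, rather than its carry-over into labelling, was not tested.

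**Figure D4:**
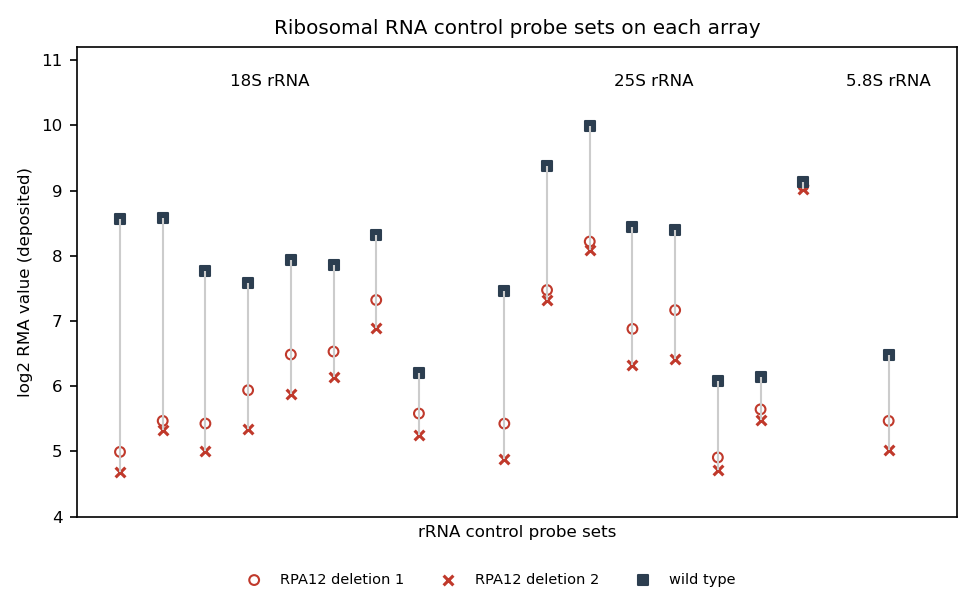
Deposited log2 RMA value (y axis) of the 17 ribosomal RNA control probe sets (x axis, 18S, 25S and 5.8S, ordered within each kind by their difference) on RPA12 deletion array 1 (circles), RPA12 deletion array 2 (crosses) and the wild-type array (squares). The wild-type value is the highest for every probe set, with 18S values from 6.20 to 8.57 on that array against 4.69 to 7.32 on the deletion arrays.

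Signal along messenger RNAs, a sign of RNA quality, did not differ in a common direction. The 3′ minus 5′ difference over 7 yeast control transcripts had a median of 2.26 and 2.35 on the deletion arrays and 2.60 on the wild-type array. It was larger on both deletion arrays for 5 of the 7 transcripts, against the direction of the medians. The largest of these was at TDH1, with 1.82 and 1.87 against 0.58, while it was smaller for EAF5 and for SPT15, the latter at 2.26 and 2.34 against 3.67. Its part in the differences of the processome genes was not tested.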

How the data were processed

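The authors deposited log2 values, 1 per probe set and array, computed with RMA in Affymetrix Expression Console, per the submitters' processing notes. Tool versions, and which arrays shared the RMA run, are not stated there. The deposited arrays do not share one distribution: the medians of the tested probe sets were 5.74, 5.74 and, for the wild type, 5.49.

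Of 10928 probe sets, 5498 with a single gene symbol and a S. cerevisiae gene identifier in the RefSeq table of assembly R64 were tested. The 1746 of the array's other yeast species gave the background, the value below which 95% of them lay (1.42 on each deletion array, 1.84 on the wild-type array). One listed gene, DBP4, was matched as HCA4. Deletion minus wild type was fitted with limma 3.58.1 in R 4.3.3 (lmFit, eBayes, two-sided, Benjamini-Hochberg over all 5498), with 1 residual degree of freedom, tested on simulated data. The deletion arrays were equal for 44.2% of probe sets, so a call also needed a 2-fold difference. A value at or below background gives a bound.

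Within each subcomplex the genes with the largest and smallest differences, and those not called or unstable, are given with all array values. In other lists up to 3 leading genes are named by that rule, and the rest were chosen after their values were seen. The genes and lists were chosen with earlier results of these data known. The number of arrays limits the precision.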

Additional observations from a re-analysis of the deposited data

How the results depend on the processing

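The median difference of the 41 genes, 1.41 as deposited, was 0.95 after quantile normalization again and 1.16 after median centring, and ran from 1.39 to 1.42 when either deletion array was left out. The count of these genes that rose, 26, was 20 and 22 under those scalings, 37 with no fold minimum, 25 and 26 without one or the other deletion array (2-fold alone, since no residual degree of freedom is left), and 26 under an intensity trend, a prior variance without tied probe sets, a filter on dim probe sets, the mean of a gene's probe sets (each has 1) or 2-fold alone. No gene of the 41 was called lower under any of these. UTP8, UTP14, UTP11 and RRP5 dropped under 2-fold under both scalings, RRP9 and ENP1 under quantile normalization again, and UTP11 without replicate 1. In the late 40S list 12 genes were higher and 2 lower by adjusted p alone, against 50.4% and 29.7% of all tested probe sets. The 2 H/ACA genes that rose became 1 under each scaling and 1 without replicate 1 of the deletion arrays (range 1 to 2). No paired analysis was possible because the wild-type group has a single array with no replicate number. The motif search in promoters was not run, since no promoter sequences were used here. With 1 wild-type array, the spread between wild-type cultures is unknown.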

Other observations

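Regulators of the ribosome biogenesis genes went in both directions. Of 11 listed, 2 rose and 3 fell, against 23.8% of all tested probe sets higher and 10.2% lower. IFH1, a coactivator of ribosomal protein genes, read 5.47 and 5.45 on the deletion arrays against 2.90, a rise of 5.88-fold, and TOD6, a repressor that binds the PAC motif of ribosome biogenesis promoters, read 5.85 on both against 3.41, a rise of 5.43-fold. CRF1, a corepressor of ribosomal protein genes, read 3.37 and 3.21 against 6.10, a fall of 7.01-fold. SCH9, a kinase that promotes ribosome synthesis, read 4.27 and 4.03 against 6.40, a fall of 4.75-fold. STB3, which binds the RRPE motif of these promoters and acts as a repressor, read 4.72 and 4.87 against 7.03, a fall of 4.70-fold. DOT6, the paralog of TOD6, read 7.04 and 7.01 against 7.94, under 2-fold, and passed as lower after median centring (difference -1.17). SFP1, an activator of these genes, read 5.59 on both deletion arrays against 5.64.

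The genes next to the 41 on the chromosomes, by their order in the R64 annotation, were measured too. Of 80 measured neighbours 24 rose, a share of 30.0%, and 4 fell, against 23.8% higher and 10.2% lower among all tested probe sets. Of the 17 neighbours that are transcribed away from one of the 41 genes across a shared upstream region 4 rose, or 23.5%. No pair among the 41 genes is adjacent. UTP13 lies beside both IFH1 and RSA3, a large-subunit assembly factor, with differences of 0.94, 2.56 and 1.77.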
